A study of Mus musculus with 3 samples.

Results

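The lung of mice carrying a B16 tumour was set against the lung of mice carrying an LLC tumour, using 2 of the 3 arrays of the series, 1 per lung. B16 is a mouse melanoma line and LLC (Lewis lung carcinoma) a mouse lung carcinoma line. The tumour cells had been placed under the skin of the back, and per the series description the lungs were studied as tissue that responds to a distant tumour before tumour cells arrive. The remaining array, of a normal lung without tumour, serves here to say which of the tumour-bearing lungs lay away from the control level. All lung RNA came from frozen tissue. The labels used here give no strain, age, sex, time after injection or number of animals for any group. With 1 array per lung there is no replicate, so every value describes these arrays and no p-value is given. In whole tissue, fewer cells of a type and less RNA per cell cannot be told apart.

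All 12422 probe sets outside the manufacturer's 66 controls were compared, of 12488 on the array. A probe set is a group of short probes for 1 transcript, and its signal is a background-subtracted brightness on a linear scale. A signal under 23.6, the 40th percentile of all values, was treated as unmeasured and raised to this floor, so a fold against it is a lower bound and is written as "at least". Differences are log2 values of the B16-bearing minus the LLC-bearing lung: a positive value means higher with B16, a negative value higher with LLC. Of 7983 probe sets above the floor in at least 1 of the tumour-bearing lungs, 6859 were above it in both. They stand for 5984 genes, each represented by its brightest probe set, of which 5273 were above the floor in both.

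Solid tumours release factors that act on distant organs. In the lung this is known to bring in bone marrow-derived myeloid cells, to alter the matrix and the vessels, and to prepare sites where circulating tumour cells can settle. Leukocytes carry a shared set of genes, among them the surface phosphatase CD45, the actin regulators of the haematopoietic lineage and adaptors with immune receptor activation motifs. Elastin and the lysyl oxidases, which crosslink elastin and collagen, build the elastic fibres of the lung, and metallothioneins bind zinc and are induced by metals and glucocorticoids.

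Below, "with B16" and "with LLC" stand for the lung of mice carrying that tumour, and 3 values in a row are signals with B16, with LLC and in control, in this order. Both samples carried the markers of lung. Sftpc, the surfactant protein of type 2 alveolar cells, read 7482 with B16, 7296 with LLC and 6206 in control. Scgb1a1, the secretoglobin of club cells, read 5927, 6218 and 5424. Ager, a receptor of type 1 alveolar cells, read 3141, 2270 and 2432. On these defining genes the 3 lungs lay within 1.5-fold of each other. Pigment genes, which mark the lineage of B16 cells, were not above control with B16 by 1.5-fold: Tyrp1 and Oca2 were below the floor on all 3 arrays, Tyr, the tyrosinase, read 26.2, 30.0 and 20.9, and Pmel, a melanosome protein, 78.6, 40.7 and 85.9. Dct, a pigment enzyme, read 196 with LLC and was under the floor on both other arrays. The 3' to 5' signal ratio of the Gapdh control, a measure of RNA integrity, was 1.20, 1.001 and 0.957, and that of beta-actin 1.56, 1.47 and 1.44. The B16-bearing lung thus had the highest ratio for both controls, and its part in the differences below was not tested.

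More probe sets were higher with LLC than with B16. At least 2-fold higher in the LLC-bearing lung were 413 of 7983 probe sets, or 5.17%, and in the B16-bearing lung 279, or 3.49% (8.67% either way). At least 4-fold higher were 71 and 36, and at least 8-fold higher 16 and 5. With quantile normalization of the arrays the counts were 358 with LLC and 329 with B16, so the size of the excess depended on the scaling. In genes the counts were 295 (4.93%) and 204 (3.41%) of 5984, 8.34% either way. Among the 5273 genes above the floor in both lungs they were 171 (3.24%) and 126 (2.39%), 5.63% either way, so an excess with LLC was also present without floored values. In the middle of the distribution the lungs were alike: the median difference of these genes was -0.01, with 48.7% higher in the B16-bearing lung and 51.3% higher in the LLC-bearing lung.

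Most differences of at least 2-fold were in dim probe sets. Where the brighter lung read under 50, only 2.58% of 1631 probe sets differed at least 2-fold, a bin in which the floor of 23.6 leaves little room for such a difference. Where it read 50 to 100, 17.0% of 1938 probe sets differed at least 2-fold. At 400 to 1000 this was 3.39% of 827, and above 1000 it was 2.63% of 266, with 6 probe sets higher in the LLC-bearing lung and 1 higher in the B16-bearing lung. The robust SD of the log2 difference, a spread that ignores extreme values, fell by brightness from 0.53 at 50 to 100 to 0.22 above 1000. From 50 upward, the share of 2-fold differences was thus lower in each brighter bin. Differences of at least 4-fold did not follow this order. At 50 to 100 they were 8 toward B16 and 10 toward LLC of 1938 probe sets. At 100 to 200 they were 18 and 32 of 1971, and above 1000 they were 0 and 6 of 266. At the edge of the 2-fold limit toward B16, C2cd2 stood just inside it with 47.2 against a value below the floor, and Cdkn1a, the p21 inhibitor of the cell cycle, just outside it with 738 and 370. Toward LLC, Clec4d, a lectin of myeloid cells, stood just inside it with a value below the floor against 47.2, and Axin1, a scaffold of Wnt signalling, just outside it with 37.1 and 74.2.

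**Figure D1:**
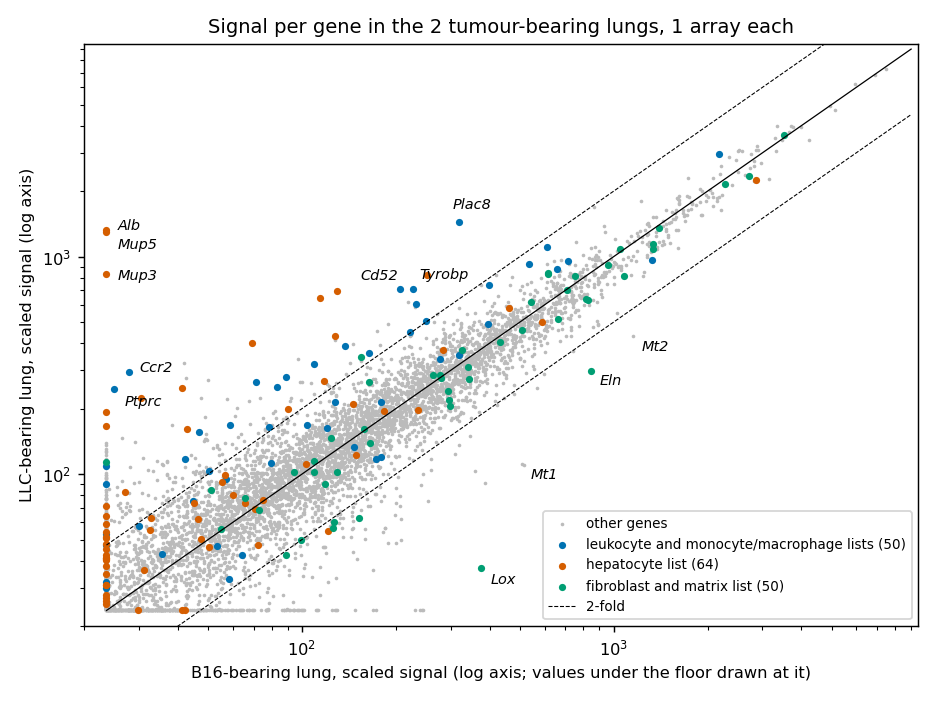
Signal of each of 5984 genes in the B16-bearing (x axis) and LLC-bearing lung (y axis), both log axes in scaled signal units, 1 array each; the solid line marks equal signal, dashed lines 2-fold, and values under the floor of 23.6 are drawn at it. Most leukocyte and hepatocyte genes lie above the diagonal, with Alb at 1327 against a value below the floor and exceptions such as Hp at 2870 with B16 and 2248 with LLC, while Lox, Eln, Mt1 and Mt2 lie below it.

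Genes with several probe sets give a repeat reading on the same RNA. Of 974 such genes, 60 differed at least 2-fold on their brightest probe set, and the second brightest lay on the same side in 45, or 75.0%, against 55.5% over all 974 genes. For genes higher with LLC it was 28 of 35, with 9 at least 2-fold again and a median of -0.53. For genes higher with B16 it was 17 of 25, with 4 at least 2-fold again and a median of 0.16. The repeat readings therefore held the direction more often than over all such genes, and mostly with a smaller size. Ptprc, Lsp1, Hpx, Mup3, Slfn2 and Serpina1c kept at least 2-fold higher values with LLC, and Lox, Lama4 and Prkcz with B16. Col18a1 and Fbln1, matrix genes, were higher with LLC on the brightest probe set (-2.27, a bound since Col18a1 was below the floor with B16, and -1.16). They read 0.19 and 0.23 on the next, so their direction is unsettled. Peg3, an imprinted gene, was at least 2-fold different in opposite directions on its first and second probe set.

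**Figure D2:**
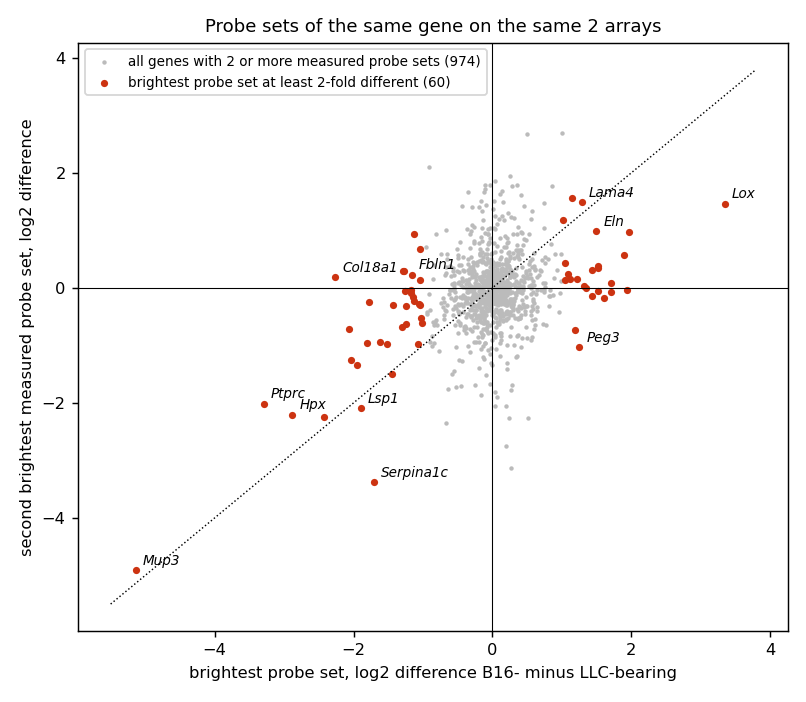
Log2 difference (B16-bearing minus LLC-bearing lung) of the brightest probe set of a gene (x axis) against that of its second brightest measured probe set (y axis), 974 genes, with the 60 genes of at least 2-fold difference in red. Mup3, Ptprc, Hpx, Lsp1 and Serpina1c fall in the lower left with both readings below -1, and Col18a1 and Fbln1 fall above 0 on the second reading only.

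The control array shows which lung stood away from the normal level. A gene was assigned to 1 lung if that lung differed at least 2-fold from control while the other stayed within 1.5-fold. Of the 295 genes higher with LLC, 107 (36.3%) were assigned to the LLC-bearing lung and 96 (32.5%) to the B16-bearing lung, where they were below control. In 28 the lungs lay on opposite sides of control by at least 1.5-fold each, and 64 were mixed. Of the 204 genes higher with B16, 61 (29.9%) were assigned to the B16-bearing and 53 to the LLC-bearing lung, 24 were opposite and 66 mixed. Neither lung accounted for most of the differences. All of this rests on 1 control array.

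**Figure D3:**
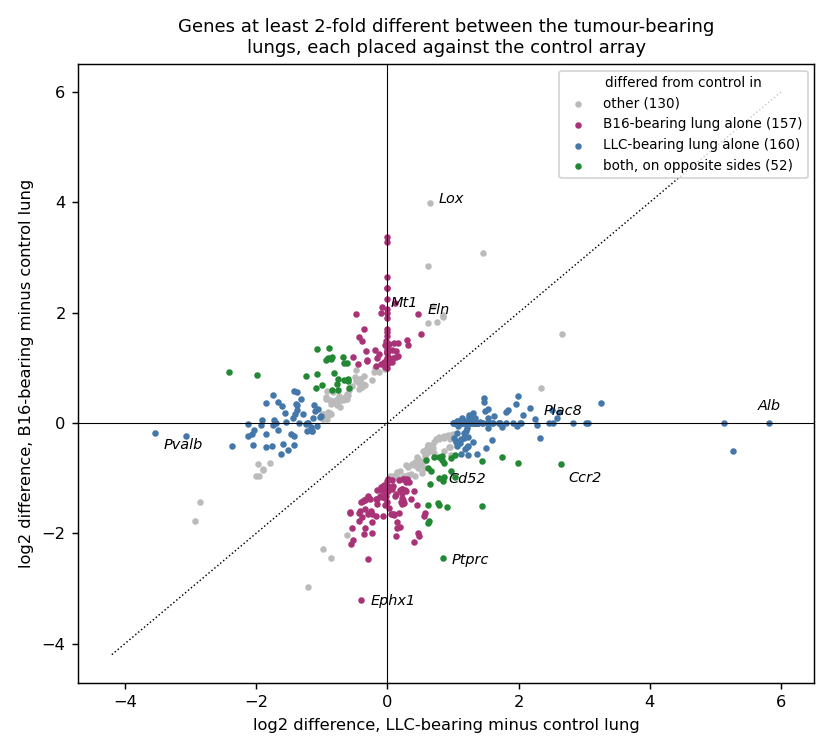
The 499 genes at least 2-fold different between the tumour-bearing lungs, placed by the log2 difference of the LLC-bearing (x axis) and of the B16-bearing lung (y axis) from the same control array; colours give the lung that differed from control and the dotted line marks equality of both lungs. Alb and Plac8 lie along the x axis, Mt1 and Eln along the y axis, and Ccr2, Ptprc and Cd52 in the lower right with the lungs on opposite sides of control.

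Among the gene lists, which were chosen with earlier results of these data known, the median difference was widest in common leukocyte genes. Of 39 gene lists for cell types and pathways, 38 had at least 5 members above the floor in both lungs. Only members above the floor in both are counted here, since a member measured in 1 lung alone had to differ. The median difference reached a log2 size of 0.32 toward LLC in 6 lists, which were the common leukocyte genes (-1.20), monocytes and macrophages (-0.72), neutrophils (-0.44), hepatocytes (-0.42), cholesterol and fatty acid synthesis (-0.41) and chemokines with their receptors (-0.34). It reached it toward B16 in 4 lists, which were mesothelium (0.42), acute-phase genes (0.35), smooth muscle and pericytes (0.33) and T lymphocytes (0.32). The median over all genes above the floor in both was -0.01.

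**Figure D4:**
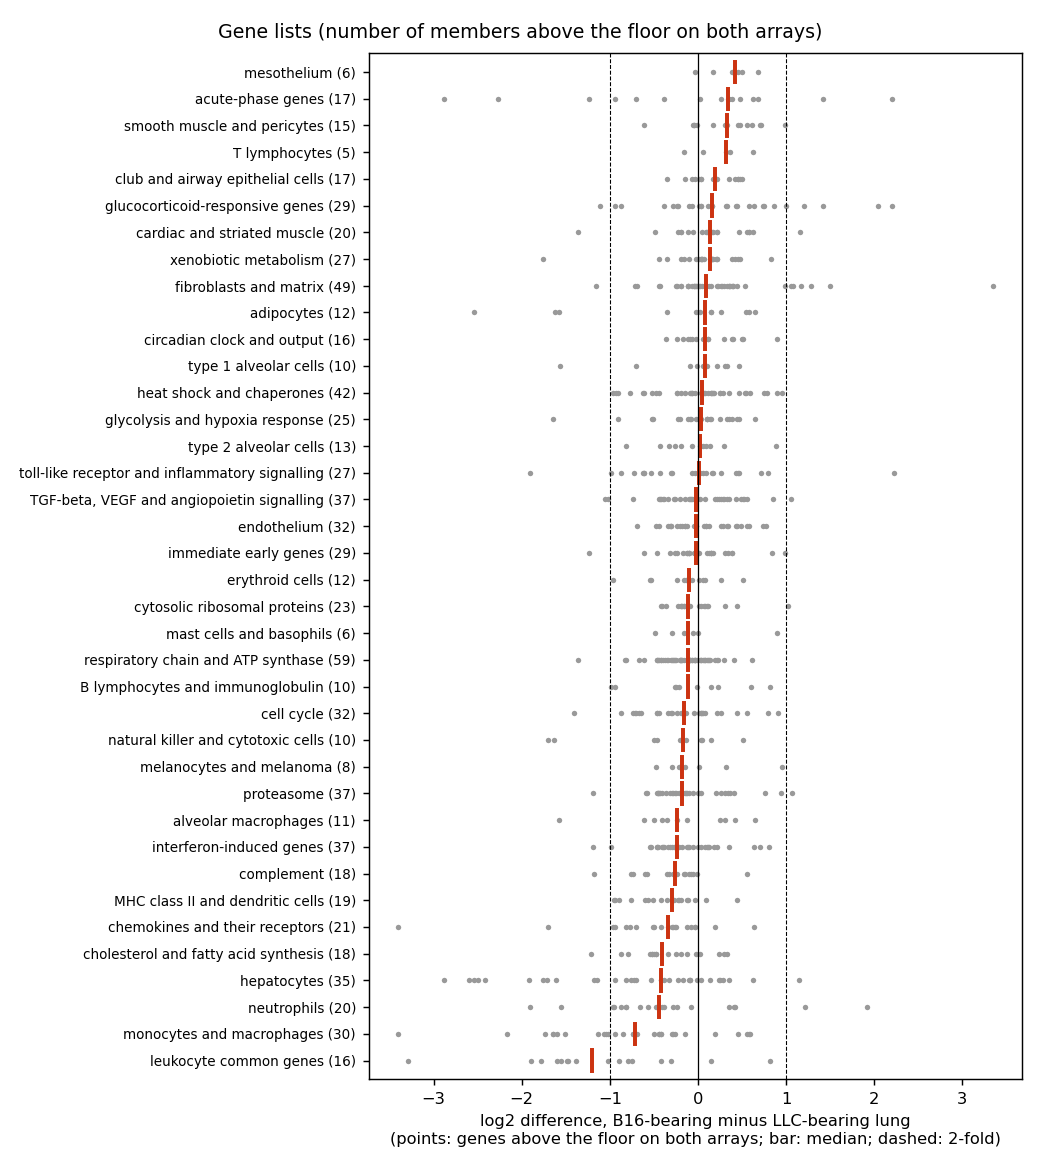
Log2 difference (x axis, B16-bearing minus LLC-bearing lung) of each list member above the floor on both arrays (grey points) and the list median (red bar), for 38 lists ordered by median, with member numbers in parentheses; dashed lines mark 2-fold. The leukocyte and the monocyte and macrophage lists lie lowest, at -1.20 and -0.72, and most other medians lie within 0.3 of 0.

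The common leukocyte genes were lower in the B16-bearing and higher in the LLC-bearing lung than in control. Of 23 on the array, 16 were above the floor in both tumour-bearing lungs, 14 of them higher with LLC, 9 at least 2-fold and 0 at least 2-fold higher with B16 (background 3.24% and 2.39%). A further 4 were above the floor in the LLC-bearing lung alone. The signals summed to 3419 with B16, 6907 with LLC and 4384 in control. The median member differed from control by -0.32 with B16 and by 0.70 with LLC, so the lungs lay on either side of the control array.

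Ptprc, the CD45 phosphatase carried by all nucleated blood cells, read 24.98 with B16, 245 with LLC and 137 in control, and on its second probe set a value below the floor, 95.4 and 62.9. Both readings put the lungs in the same order. Cd52, a small surface glycoprotein of lymphocytes and monocytes, read 206, 707 and 409 (-1.78). Lsp1, an actin-binding protein of leukocytes, read 71.0, 264 and 147 (-1.90), and 54.3, 231 and 135 on its second probe set. Coro1a, the coronin that remodels actin in blood cells, read 110, 321 and 201 (-1.55). These genes shared 1 order, with the control lung between the tumour-bearing lungs. Arhgdib, known from haematopoietic cells, read 232, 604 and 409 (-1.38), and Rac2, the haematopoietic Rac GTPase, 223, 452 and 271 (-1.02). Itgb2, the beta chain of the leukocyte integrins, read 42.3, 118 and 97.6 (-1.48). Srgn, the proteoglycan of secretory granules, read 138, 386 and 164 (-1.49). Ptpn6, the phosphatase SHP-1, and Was, the Wiskott-Aldrich protein of the actin network, were under the floor with B16 and read 109 and 90.2 with LLC. The list was not uniform: Itgal, the integrin alpha chain of LFA-1, differed by 0.15 (147, 133 and 135), and Cd37, a tetraspanin of B cells, was higher with B16 (58.2 and 33.0, a difference of 0.82).

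Promoters of these genes were searched for the PU.1 box GAGGAA, the core bound by a transcription factor of myeloid and B cells, on both strands. RefSeq windows (GRCm38.p6, 250 bases before to 50 after the annotated start) were found for 34 of the 50 measured genes of the leukocyte and the monocyte and macrophage lists. Of their 43 windows, 24 (55.8%) held at least 1 match, against 28.3% of all 32851 windows. Over genes at least 2-fold higher with LLC it was 25.7%, and with B16 23.6%. The share was thus a feature of the leukocyte lists and did not extend to all genes that were higher with LLC. A match is only a run of letters and no site. The windows of Ptprc (chr1:138175256-138175555, minus strand, 1 match) and Plac8 (chr5:100572156-100572455, minus strand, 2 matches), a pair with large differences, are shown as examples that hold matches, in capitals. Each has a second window with 0 matches, and the window of Ccr2, with a larger difference than either, also held 0.
Ptprc: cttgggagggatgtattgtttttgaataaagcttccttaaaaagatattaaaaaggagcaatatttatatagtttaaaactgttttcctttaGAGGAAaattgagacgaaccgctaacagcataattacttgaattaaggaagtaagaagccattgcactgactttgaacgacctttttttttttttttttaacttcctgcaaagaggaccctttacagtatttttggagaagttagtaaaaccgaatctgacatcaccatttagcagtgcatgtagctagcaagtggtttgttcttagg
Plac8: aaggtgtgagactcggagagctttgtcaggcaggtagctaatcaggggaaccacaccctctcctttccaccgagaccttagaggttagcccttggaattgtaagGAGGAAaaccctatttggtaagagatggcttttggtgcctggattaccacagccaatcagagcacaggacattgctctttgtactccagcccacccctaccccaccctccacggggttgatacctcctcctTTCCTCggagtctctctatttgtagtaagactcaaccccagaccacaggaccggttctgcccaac

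Monocyte and macrophage genes were higher in the LLC-bearing lung on most members. Of 39 on the array, 30 were above the floor in both lungs, 25 of them higher with LLC (51.3% over all genes) and 11 at least 2-fold (3.24% over all genes), with 0 at least 2-fold higher with B16 (2.39%). Summed signals were 8717, 13510 and 9356. The median member differed from control by -0.11 with B16 and 0.58 with LLC. Without the members shared with the leukocyte list, 23 of 28 were higher with LLC and the median was the same, -0.72.

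Receptors and membrane proteins of monocytes were among the genes furthest apart. Ccr2, the receptor through which inflammatory monocytes leave the bone marrow, read 27.8 with B16, 294 with LLC and 46.8 in control (-3.40). Ms4a6c, a membrane protein of monocytes, read 42.0, 325 and 119 (-2.95). Plac8, a small protein of myeloid and lymphoid cells, read 320, 1442 and 304 (-2.17), so only the LLC-bearing lung stood away from control. Csf1r, the receptor for macrophage colony-stimulating factor, read 164, 361 and 224 (-1.14). All 4 were highest with LLC, by different amounts against control. Csf1, the ligand of Csf1r, went the other way, with 207, 49.6 and 94.6 (2.07); it was picked out after its values were seen.

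Signalling adaptors and effector proteins of myeloid cells followed the receptors. Tyrobp, the DAP12 adaptor, read 226, 706 and 305 (-1.64). Lst1, a transmembrane protein of myeloid cells, read 89.0, 279 and 123 (-1.65), and Cd53, a tetraspanin, 83.2, 252 and 138 (-1.60). Ncf4 and Cybb, subunits of the phagocyte NADPH oxidase, differed by -1.51 and -1.05. Mpeg1, the perforin of macrophages, read 505 with LLC and 330 in control (-1.02 between the tumour-bearing lungs), and Cd68, an endosomal glycoprotein of macrophages, 46.8, 155 and 122 (-1.73). Among lysosomal proteases the picture was mixed: Ctss read 609, 1102 and 975 (-0.85) and Ctsb 714, 955 and 768 (-0.42), while Ctsd read 1323, 964 and 889 and was higher with B16 (0.46). Lyz2, the lysozyme of macrophages and type 2 cells and the brightest member, read 2182, 2966 and 2703 (-0.44). Members higher with B16 were the Fc receptor Fcgr3 (0.59), the scavenger receptor Msr1 (0.57), C1qb (0.56), Ctsd and Cx3cr1 (0.19); the second probe sets of Msr1 and C1qb read -0.32 and -0.91, toward LLC. Resident alveolar macrophage genes differed less, with a median of -0.24 over 11 members that turned to 0.25 with the floor at 100; Chil3, the chitinase-like protein of these cells, read 288, 442 and 550 (-0.62), and Abcg1, a cholesterol exporter, 360, 268 and 257 (0.42).

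S100a4 and Lgals3, known from macrophages and from motile mesenchymal cells, had the same direction. S100a4, a calcium-binding protein, read 42.5, 278 and 70.1 (-2.71), and Lgals3, the galectin 3, read 219, 616 and 294 (-1.49). In each the B16-bearing lung was below control and the LLC-bearing lung more than 2-fold above it.

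Chemokines and their receptors were higher with LLC on 19 of 21 members above the floor in both lungs (51.3% over all genes), 2 at least 2-fold (3.24%). Among ligands, Ccl5, made by T and natural killer cells, read 127, 414 and 349 (-1.70), so it was below control in the B16-bearing lung. Ccl6 read 383, 625 and 328 (-0.71) and Ccl9 71.6, 139 and 59.0 (-0.96), both from myeloid cells and both near control in the B16-bearing lung. Ccl8, a monocyte attractant, was under the floor with B16 and read 117 with LLC and 24.1 in control. Cxcl12, the stromal ligand of Cxcr4, differed little on its brightest probe set (485, 527 and 465) and by -0.25 on the next. Its dimmest probe set read 63.4, 129 and 117 (-1.03). Among receptors, Cxcr2, found on neutrophils, read 57.2, 100.3 and 54.4 (-0.81). Ccr6 read 86.4 with B16 and 37.7 in control and was below the floor with LLC.

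Antigen presentation, complement and interferon genes leaned the same way by smaller amounts. Over all genes above the floor in both lungs, 51.3% were higher with LLC and 3.24% at least 2-fold. In these lists 0, 1 and 1 members were at least 2-fold higher with LLC, near that share. In the list of MHC class II and dendritic cells 17 of 19 members were higher with LLC, 0 at least 2-fold, with a median of -0.29: H2-Aa read 933, 1385 and 986 (-0.57), H2-DMa, which loads peptides, 124, 239 and 148 (-0.95), and Cd74, the invariant chain, 2853, 3100 and 2266 (-0.12). Irf8, a transcription factor of monocytes and dendritic cells, read 161, 310 and 187 (-0.94). For complement it was 17 of 18 with a median of -0.27. Cfp, properdin, was the only one of these members at least 2-fold different (-1.18), with 23.7 with B16, just above the floor, and 53.5 with LLC. Of the interferon-induced genes, 26 of 37 were higher with LLC, with a median of -0.24. Here the immunoproteasome subunit Psmb10 (142, 324 and 163) differed by -1.19, while the bright members H2-K1 and B2m differed by -0.11 and -0.29; on the probe set of H2-K1 left when relaxed probe set names are removed, the difference was 1.05, toward B16. Among lymphocyte lists only that of T lymphocytes reached a log2 size of 0.32 here. Its median lay between 0.05 and 0.36 over the alternatives run. B lymphocyte genes had a median of -0.12 over 10 members and natural killer and cytotoxic genes one of -0.17 over 10, while T lymphocyte genes had one of 0.32 over only 5, with Cd4 at 168, 109 and 124 (0.62). Of the natural killer and cytotoxic genes above the floor in both lungs, only Ccl5 and Gzma, the granzyme A, were at least 2-fold different, Gzma with 49.4, 154 and 133 (-1.64).

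The median neutrophil gene was above control with both tumours, by 0.35 with B16 and 0.66 with LLC. Of 20 members above the floor in both, 15 were higher with LLC, 2 at least 2-fold (3.24% over all genes), and 2 were at least 2-fold higher with B16 (2.39%); the median was -0.44. S100a9 and S100a8, the calprotectin chains, differed by -0.96 (866 and 1684) and -0.56 (1224 and 1810). Il1b, the inflammatory cytokine, read 48.9, 182 and 40.6 (-1.90) and was at the control level with B16. Csf3r, the receptor for granulocyte colony-stimulating factor, read 219, 346 and 205 (-0.66). Its second brightest probe set read 55.8, 285 and 108 (-2.35), with the B16-bearing lung below control there. Mmp9, a gelatinase of granules, read 77.6, 150.4 and 54.0 (-0.95). Granule proteins went both ways, with Camp, the cathelicidin, at 300, 225 and 171 (0.42) and Elane, the elastase, at 76.5, 57.6 and 46.7 (0.41). Padi4, the histone-citrullinating enzyme, and Gsr, the glutathione reductase, were the members at least 2-fold higher with B16, and in both the LLC-bearing lung lay below control (121, 32.1 and 97.4; 95.1, 41.0 and 124).

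Most hepatocyte genes were higher in the LLC-bearing lung, and a few were far higher. Alb, serum albumin, read 1327 there and was under the floor on both other arrays, at least 56.2-fold apart. Serpina1c, an alpha-1-antitrypsin gene, read 252, 826 and 163 (-1.71). Cps1, the first enzyme of the urea cycle, read 41.2, 248 and 49.7 (-2.59), and Kng1, kininogen, 42.8, 161 and 38.6 (-1.91). The B16-bearing lung was near control in Cps1 and Kng1. Of 96 list genes on the array, 35 were above the floor in both tumour-bearing lungs. Of these, 27 were higher with LLC (51.3% over all genes), 11 at least 2-fold (3.24%), and 8 were higher with B16, with a median of -0.42. Of the 64 members measured in at least 1 of these lungs, 26 were above it with LLC alone and 3 with B16 alone. Over all 5984 measured genes these counts were 423 and 288. The control lung had 35 of the 96 above the floor. On the same array 7517 of all 12422 probe sets passed it. The count of 35 alone therefore does not show that lung tissue expresses these genes. The summed signals were 7316, 14658 and 6392. Mup5 and Mup3, major urinary proteins, read 1293 and 830 with LLC and were below the floor with B16. With Alb they weigh heavily in the sum with LLC. Hp, haptoglobin, which lung also expresses, read 2870, 2248 and 1910 and was higher with B16 (0.35). F12, coagulation factor XII, was the member at least 2-fold higher with B16 (1.15).

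The acute-phase list changed direction with the members counted. Over the 17 members above the floor in both lungs, 11 were higher with B16 (48.7% over all genes), with a median of 0.35. At least 2-fold higher were 2 with B16 (2.39% over all genes) and 3 with LLC (3.24%). The 2 with B16 were Mt1 and Mt2, which also stand in the list of glucocorticoid-responsive genes. Over all measured members these counts were 2 and 7. Over all 22 measured members the median was -0.18, since 5 were above the floor with LLC alone, among them the fibrinogen chains Fga, Fgb and Fgg, which also stand in the hepatocyte list. Without members of the hepatocyte list, 9 of 13 were higher with B16. Higher with B16 were Stat3, the transcription factor of interleukin 6 signals, with 545, 429 and 348 (0.35), Cp, ceruloplasmin, with 388, 303 and 192 (0.36), and Serpina3n, a protease inhibitor, with 288, 207 and 122 (0.47). In these the B16-bearing lung was highest and control lowest. Higher with LLC were Socs3, an inhibitor of cytokine signals, with 62.5, 148 and 58.8 (-1.24), and Saa2, a serum amyloid A, below the floor with B16 and at 97.0 with LLC. Il6ra, the alpha chain of the interleukin 6 receptor, read 169 with B16 and 36.1 with LLC (2.22), below the floor in control.

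Metallothioneins were among the brightest genes that were higher with B16. Mt1 read 508 with B16, 111 with LLC and 118 in control, 4.59-fold apart, with only the B16-bearing lung away from control. Mt2 read 1152, 429 and 266, 2.68-fold apart, with both tumour-bearing lungs above control. The genes are neighbours on chromosome 8 (GRCm38.p6), their annotated starts 6471 bases apart. Their RefSeq promoter windows were searched on both strands for the core of the metal response element, TGCACNC or TGCGCNC. Mt1 held 3 matches, at -23, +3 and +21 from the annotated start, and Mt2 held 4, at -223, -128, -50 and +5. Of all 32851 windows 25.7% held at least 1 match and 0.518% held 4 or more. The share with at least 1 match was 35.7% in windows of genes at least 2-fold higher with B16 and 35.6% in those higher with LLC, so it was alike for both directions. The windows, chr8:94178839-94179138 for Mt1 and chr8:94172368-94172667 for Mt2, both on the plus strand, are shown with matches in capitals because these adjacent genes were both higher with B16.
Mt1: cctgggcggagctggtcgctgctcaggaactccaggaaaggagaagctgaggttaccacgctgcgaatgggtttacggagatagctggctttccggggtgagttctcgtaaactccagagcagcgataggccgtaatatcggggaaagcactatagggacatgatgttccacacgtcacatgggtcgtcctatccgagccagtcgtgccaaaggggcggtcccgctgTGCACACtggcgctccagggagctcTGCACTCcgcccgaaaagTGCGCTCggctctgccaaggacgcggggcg
Mt2: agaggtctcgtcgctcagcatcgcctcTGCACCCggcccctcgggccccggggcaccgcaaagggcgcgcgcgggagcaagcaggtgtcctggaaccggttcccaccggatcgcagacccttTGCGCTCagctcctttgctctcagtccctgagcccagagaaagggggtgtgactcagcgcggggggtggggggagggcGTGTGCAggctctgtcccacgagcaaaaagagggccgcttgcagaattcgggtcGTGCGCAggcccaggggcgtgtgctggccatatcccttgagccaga

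Other glucocorticoid-responsive genes were split. Of 29 members above the floor in both lungs, 20 were higher with B16 (48.7% over all genes) and 4 at least 2-fold (2.39%), against 1 at least 2-fold higher with LLC (3.24%); the median was 0.16. Besides Mt1 and Mt2 these were Map3k6, a stress-activated kinase, with 200, 48.5 and 44.5 (2.05), and Hif3a, a hypoxia-inducible factor subunit, with 73.1, 31.7 and 35.7 (1.21). In both, the LLC-bearing lung was near control. Cdkn1a read 738, 370 and 153, and on its second probe set 158 with B16 and 24.5 with LLC (2.69). Fkbp5, the co-chaperone of the glucocorticoid receptor, read 323 and 192 (0.75), and Zbtb16, a zinc finger factor, 859, 630 and 308 (0.45). For these 3 both tumour-bearing lungs lay above control and B16 higher. Sgk1 and Dusp1, classic early targets, hardly differed (0.01 and -0.10), and Ddit4, an inhibitor of mTOR signals, was lower with B16 than in both other lungs (120, 259 and 246).

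A group of matrix genes was higher with B16, while the main fibrillar collagens differed little on their brightest probe sets. Lox, lysyl oxidase, read 376 with B16, 37.0 with LLC and under the floor in control (3.34, 10.2-fold), and 262, 95.1 and 66.7 on its second probe set (1.46). Eln, elastin, read 843, 299 and 216 (1.49), and 151, 76.3 and 58.6 on its second probe set (0.98). On all 4 readings the B16-bearing lung was highest and control lowest. Loxl1, a related oxidase needed for elastic fibres, read 127, 59.98 and 140.3 (1.08), so here the LLC-bearing lung was the one below control. Lama4, a laminin chain of vessel walls, read 153, 62.7 and 115 (1.29). Its second probe set differed by at least 1.49, being below the floor with LLC. Fbln2, a fibulin, read 126, 56.2 and 60.1 (1.17), and Mmp3, stromelysin 1, 88.6 with B16 and 42.5 with LLC (1.06).

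Within the list of fibroblasts and matrix, 31 of 49 members above the floor in both were higher with B16 (48.7% over all genes), 6 at least 2-fold (2.39%), against 1 with LLC (3.24%), and the median was 0.09. Fibrillar collagens did not move with Eln and Lox: Col1a1 read 280, 275 and 296 (0.02), Col1a2 432, 406 and 334 (0.09), and Col3a1 326, 371 and 218 (-0.19). The second probe set of Col3a1 was under the floor with B16 and read 62.1 with LLC (-1.40). Basement membrane collagens Col4a1 (1340, 1144 and 942) and Col4a2 (1334, 1087 and 792) differed by 0.23 and 0.30, with control lowest. Fn1, fibronectin, differed by -0.12 (754, 817 and 785), and Postn, periostin, by 0.01 (711, 705 and 895). Timp2, an inhibitor of matrix proteases, was lower with B16 (164, 265 and 290), while Timp1 and Timp3 differed by -0.04 and 0.04.

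Smooth muscle genes were higher with B16 on 10 of 15 members above the floor in both (48.7% over all genes), with no 2-fold difference and a median of 0.33. Acta2, smooth muscle actin, read 445, 223 and 402 (0.99), Tagln, transgelin, 612, 401 and 492 (0.61), and Myl9, a myosin light chain, 261, 159 and 235 (0.72). In these the LLC-bearing lung was the one below control. Actg2, the brightest member, differed by -0.04 (1122, 1156 and 1100). Mesothelial genes had a median of 0.42 over 6 members, of which Krt8 and Krt18 are shared with airway epithelium (455, 323 and 364; 140, 102 and 124). Cardiac and striated muscle genes had summed signals of 3175, 2697 and 4910, so control was highest, and a median of 0.13; Myh6, the cardiac myosin, read 67.9, 30.4 and 233 (1.16).

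Further large differences toward B16 came mostly from genes on no list. Eif5a, a translation factor, read 245 with B16 and was under the floor on both other arrays, and Colq, the collagen tail of acetylcholinesterase, read 230 against values below the floor. Pea15a, a phosphoprotein that binds ERK, read 239 with B16, 125 in control and below the floor with LLC, and Hcn3, a cation channel, 172, 94.0 and below the floor. Nelfa, a subunit of the negative elongation factor of transcription, read 386, 91.1 and 214.5 (2.08). Each of these comes from 1 measured probe set. Pvalb, a calcium buffer on the striated muscle list, and Daglb, a lipase, were at the control level with B16 (242 and 169) and below the floor with LLC.

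Where both lungs read at least 200, 1585 genes could be compared as a ratio of bright values, and few differed. Only 9 were at least 2-fold higher with LLC (0.568%) and 6 with B16 (0.379%), 0.946% either way. Toward LLC the largest were Plac8, Cd52, Serpina1c, Tyrobp, Lgals3 and Arhgdib. Toward B16 they were Eln, Mt2, Tgfb1i1, an adaptor of focal adhesions known as Hic-5 (569, 248 and 338), Bnip2 (598, 289 and 296), Bphl, a serine hydrolase (480, 233 and 254), and Itpkb, an inositol kinase (421, 207 and 343). Bnip2 read 0.14 and Bphl 0.43 on their second probe sets, so these remained on the B16 side but under 2-fold.

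List medians of the lung's own epithelium and vessels lay near 0. The type 2 alveolar list had a median of 0.03, with 7 of 13 members higher with B16 and 0 at least 2-fold. The type 1 list had 0.08 over 10 members, with Sema3e, a guidance factor, at least 2-fold higher with LLC (49.0, 145 and 183). The endothelial list had -0.02 over 32 members, 0 at least 2-fold different, and Gja4, a connexin of arteries, was above the floor with LLC alone (136, at least 5.76-fold). Club and airway genes had 0.19, with 13 of 17 higher with B16 (48.7% over all genes). Within the endothelium some genes were higher with B16, among them Pecam1, an adhesion molecule of cell junctions (313, 183 and 304), and Sox17, an arterial transcription factor (441, 264 and 218), while S1pr1, the sphingosine phosphate receptor (339, 545 and 484), and Tie1, an angiopoietin co-receptor (354, 482 and 441), were higher with LLC. Of the ligand and receptor pairs of vessel growth, Vegfa read 663, 704 and 730, its receptor Kdr 525, 532 and 577, and its decoy receptor Flt1 501, 341 and 327 (0.55).

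Housekeeping lists differed by small amounts. Over all genes above the floor in both lungs, 51.3% were higher with LLC. Respiratory chain genes had a median of -0.12, with 42 of 59 members higher with LLC, proteasome genes -0.18 with 25 of 37, ribosomal protein genes -0.11 with 14 of 23, and heat shock genes 0.05 with 18 of 42. Cholesterol and fatty acid synthesis stood further apart, with 14 of 18 higher with LLC. Sqle, which makes squalene epoxide, read 126, 175 and 190 (-0.47), Hmgcs1, the HMG-CoA synthase, 166, 242 and 298 (-0.54), and Idi1, the isopentenyl isomerase, 55.7, 96.8 and 133 (-0.80). In these the B16-bearing lung was lowest and control highest, while Scd1, the bright desaturase, read 1663, 1634 and 1599. The adipocyte genes Car3 (68.9, 399.6 and 285), Adipoq (37.0, 114 and 97.1) and Fabp4 (82.8, 248 and 213), were at least 2-fold lower with B16 than with LLC, while the list median was 0.08.

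**Figure D5:**
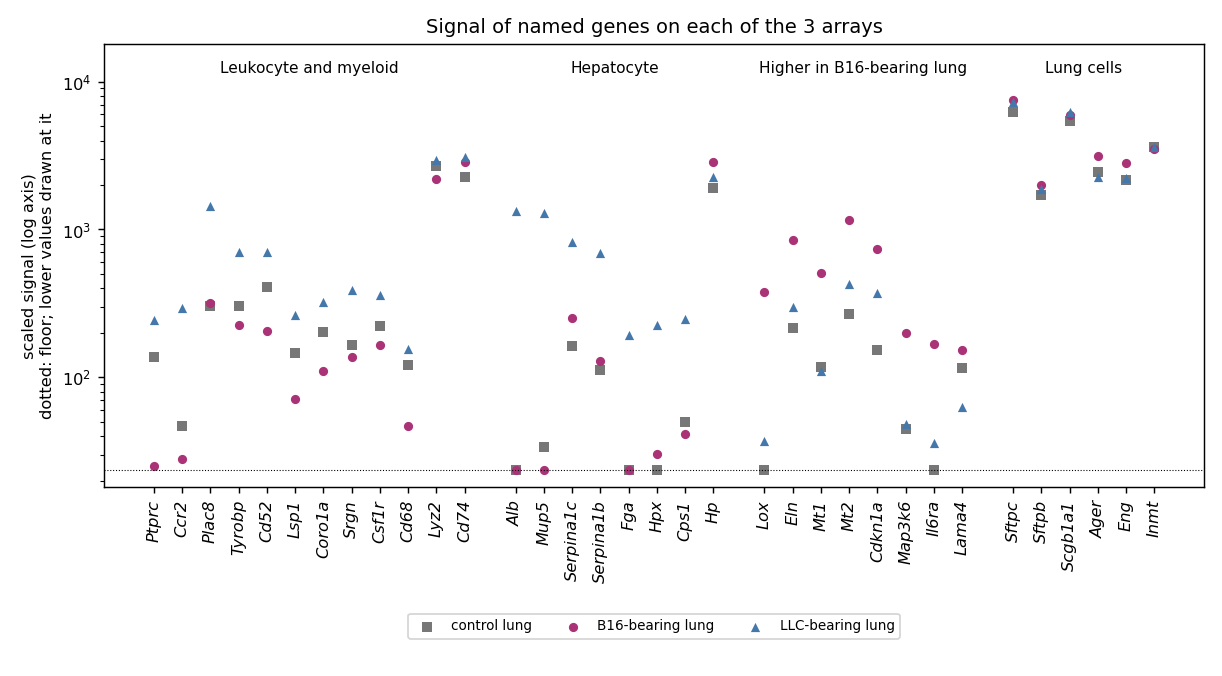
Scaled signal (log axis) of named genes on each of the 3 arrays, grouped as leukocyte and myeloid, hepatocyte, higher in the B16-bearing lung, and lung cell genes; the dotted line is the floor of 23.6 and lower values are drawn at it. The LLC-bearing lung is highest in the first group, narrowly in Lyz2 and Cd74, and in the hepatocyte group except Hp, the B16-bearing lung is highest in the third group, and the lung cell genes lie within 1.5-fold of each other.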

How the data were processed

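The values are probe set intensity values as deposited, on a linear scale with background already subtracted; the array software is not given in the sources used here. Each column had a mean of 100.1 after leaving out the lowest and highest 2% of values. Per the labels' protocols, TRIzol RNA was made into biotin-labelled cRNA. Arrays carry no read depth; their number, 1 per group, limits the precision.

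Each array was multiplied by 1 factor (0.987 for B16, 1.01 for LLC, 1 for control) that set the median log2 ratio to control to 0 over the brighter probe sets, then floored at 23.6 and log2-transformed. GEO's platform annotation gave 1 symbol to 10833 probe sets, several to 396 and none to 1193; 10817 matched RefSeq (GRCm38.p6) by gene ID. Unnamed probe sets entered the counts only.

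Named genes are those with the 12 largest differences each way, the 6 largest each way with signals of at least 200 in both lungs, list members of at least 2-fold difference or the highest signal, the brightest genes of each class against control, and genes whose probe sets all differ 2-fold; any other gene was chosen after its values were seen. The members and lists were chosen with earlier results of these data known. List medians use members above the floor in both lungs; the plan had this as the alternative to all measured members, and both are given where they disagree. Steps were tested on simulated arrays. Python 3.11.15, pandas 2.3.3 and numpy 2.4.6 were used. Alternatives varied the scaling, floor, probe set choice and members.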

Additional observations from a re-analysis of the deposited data

Results flagged for a closer look

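Of the genes named, 16 had the B16-bearing and the LLC-bearing lung on opposite sides of the control array, each by at least 1.5-fold. Over all genes at least 2-fold different between these lungs it was 52 of 499, or 10.4%. The brightest genes of this class were named for being in it, so the count of 16 partly follows from that choice. With 1 array per lung this opposition was not tested, and both differences share the control value. Slfn2, Col18a1, Trim30a and Egr1 were below the floor with B16, and Ccr6, Prss8, Hcn3 and Pea15a with LLC. Their differences from control in that lung are lower bounds in size. Below control with B16 and above it with LLC were Ccr2 (log2 differences of -0.75 and 2.65), Ptprc (-2.45 and 0.84), Ms4a6c (-1.51 and 1.45), S100a4 (-0.72 and 1.99), Slfn2, a regulator of lymphocyte and monocyte quiescence (-1.82 and 0.61), Lsp1 (-1.05 and 0.85), Cd52 (-0.99 and 0.79) and Trim30a, an interferon-induced gene (-0.63 and 0.79). So were Col18a1, a basement membrane collagen (-1.49 and 0.78; its second probe set read 58.5, 51.4 and 51.7 and lacked this opposition), Cyp2e1, a cytochrome of liver and fat (-1.10 and 0.65), and Egr1, an immediate early factor (-0.61 and 0.71). Above control with B16 and below it with LLC were Ccr6 (1.20 and -0.68), Nelfa (0.85 and -1.23), Prss8, an epithelial serine protease (1.33 and -1.07), Hcn3 (0.87 and -1.99) and Pea15a (0.93 and -2.41).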

How the results depend on the processing

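Array scaling moved the excess toward LLC. With factors from all probe sets, values as deposited, quantile normalization or 1 factor between both tumour-bearing arrays, the 279 probe sets higher with B16 became 288 to 329 and the 413 higher with LLC became 358 to 405; quantile normalization gave 329 and 358. The floor decided the counts. They were 77 and 117 at the 60th percentile, 37 and 78 at a signal of 100, 815 and 1135 at the 25th percentile, and 103 and 164 with log2(value + 50), always with more toward LLC. Genes assigned to the B16-bearing lung alone fell from 157 to 33 and 17 with the floor at the 60th percentile and at 100, those assigned to the LLC-bearing lung from 160 to 50 and 31, opposite ones from 52 to 14 and 4, and mixed ones from 130 to 53 and 36. Of the genes named by rule, 101 differed at least 2-fold, 56 with the 60th percentile and 41 with a floor of 100. The 10 lists whose median reached a log2 size of 0.32 were 4 with log2(value + 50). Over all measured members the acute-phase median reversed to -0.18, and without relaxed probe set names Fbln1 reversed to 0.23 and H2-K1 went from -0.11 to 1.05. The alveolar macrophage median went from -0.24 to 0.25 with a floor of 100. The leukocyte median stayed between -1.38 and -0.87 and that of monocytes and macrophages between -0.74 and -0.44 under every alternative run; Lox, Eln, Mt1, Mt2, Ccr2, Ptprc, Plac8 and Alb kept at least 2-fold in all 11 settings. Leaving out members shared with other lists was chosen after seeing the data. No paired analysis was possible because each group has 1 array, and none could be left out.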
